A study of Mus musculus and Rattus norvegicus with 24 samples.

Results

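Hmox1, Mt1, Mt3, Gclm, Gclc, Slc7a11, Srxn1, Txnrd1 and Nqo1 are 9 genes of the brain's defence against haem, free metal and oxidants. They were chosen by gene symbol, and each had a transcript cluster of its own in both species, so they are 9 of 22180 mouse genes and 9 of 18166 rat genes tested. Their RNA was measured on whole-transcript arrays after the middle cerebral artery had been occluded for good (pMCAO) by a filament tied in place, which stops flow to much of the hemisphere. The animals were adult males, C57BL/6 mice of 8 to 10 weeks and Sprague-Dawley rats of 8 to 12 weeks, under isoflurane. The right artery was occluded in mice and the left in rats, by different filament methods. Sham animals had the same operation with no occlusion. A 3 by 3 mm piece of the penumbra, the rim of underperfused tissue around the core, was taken at 2 h or 6 h, and in sham animals from the matching area on the operated side. The 8 groups (species by time by operation) held 3 animals each, with 1 animal on each of the 24 arrays. That number limits the precision.

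The genes belong to a few linked systems. Hmox1, haem oxygenase, splits haem into biliverdin, carbon monoxide and iron. Metallothioneins are small cysteine-rich proteins that bind zinc and copper, Mt1 in most cells and Mt3 chiefly in brain. Slc7a11, the light chain of the cystine/glutamate exchanger, brings in cystine, from which glutamate-cysteine ligase (catalytic subunit Gclc, modifier subunit Gclm) starts glutathione synthesis. Srxn1, sulfiredoxin, repairs over-oxidised peroxiredoxins, Txnrd1 is the cytosolic thioredoxin reductase, and Nqo1 reduces quinones. Many of them are textbook targets of the transcription factor NRF2 (gene Nfe2l2), which KEAP1 marks for degradation until oxidants or electrophiles modify KEAP1. NRF2 pairs with small MAF proteins at the antioxidant response element, where BACH1 represses. The metallothionein genes Mt1 and Mt2 are switched on by the zinc-sensing factor MTF1 at metal response elements.

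All levels below are the authors' deposited log2 values, so a difference of 1 is a doubling, and a difference "past the threshold" has a limma p under 0.05 after Benjamini-Hochberg adjustment over all genes of its species. Array medians were 6.03 to 6.06 in mouse at 2 h, 5.92 to 5.96 in mouse at 6 h, 6.67 to 6.75 in rat at 2 h and 5.82 to 5.87 in rat at 6 h. The times may have been processed apart, so pMCAO was compared with sham only within a time, and levels of different genes were not compared. In this bulk tissue fewer cells of a type and less RNA per cell cannot be told apart. At 6 h, 2 of 6 microglial markers fell in each species, and the mean of the list on an array was 7.34 to 7.46 after pMCAO against 7.56 to 7.64 in sham mice, and 7.29 to 7.52 against 7.60 to 7.67 in rats. Of 7 neutrophil markers, 1 rose in mouse and 2 in rat at 6 h, with array means of 5.30 to 5.58 against 5.12 to 5.18 in mouse and 5.06 to 5.55 against 4.65 to 4.77 in rat. The Csf1r call among the microglial markers was lost in mouse without any of the 6 arrays (adjusted p 0.0574 to 0.116), and that of P2ry12 in rat without any but pMCAO replicate 2 (0.076 to 0.157). Among the rat neutrophil markers the Mmp8 call was lost without any array but pMCAO replicate 3 (0.0515 to 0.125), and that of S100a9 without sham replicate 2 (0.0544). The neuronal list was at 11.21 to 11.24 against 11.34 to 11.36 in mouse and 11.42 to 11.47 against 11.50 to 11.55 in rat. The astrocyte lists overlapped between operations, at 9.38 to 9.56 against 9.22 to 9.47 in mouse and 10.43 to 10.61 against 10.36 to 10.57 in rat, with 1 of 7 astrocyte markers past the threshold in mouse (Gfap, which rose by 0.89 ± 0.19) and 0 of 6 in rat. The Gfap call was lost without pMCAO replicate 2 or 3 or sham replicate 1 (adjusted p 0.0526 to 0.0642). Cortical neuron markers were at 9.06 to 9.14 against 9.24 to 9.30 in mouse and 9.26 to 9.48 against 9.61 to 9.69 in rat. Of 4 cortical neuron markers 1 fell in each species, Neurod6, and the list medians were -0.07 in mouse and -0.19 in rat. The rat Neurod6 call was lost without any array but pMCAO replicate 2 (adjusted p 0.0521 to 0.0888). Oligodendrocyte markers did not overlap in mouse, at 9.44 to 9.48 against 9.15 to 9.40, with 0 of 4 past the threshold. The endothelial list did not overlap in rat, at 6.86 to 7.21 against 7.26 to 7.55. In mouse it overlapped, at 6.86 to 7.22 against 6.95 to 7.24. The endothelial transporter Slco1a4 fell in both species (-0.82 in mouse and -1.90 in rat). It was the only endothelial marker past the threshold, 1 of 6 in mouse and 1 of 4 in rat, with list medians of -0.06 and -0.08. The striatal neuron list spread from 7.48 to 8.70 among the 6 h sham mice, and from 7.20 to 7.38 after pMCAO, and in rat it was at 6.62 to 6.72 in sham and 6.77 to 6.78 after pMCAO. At 2 h the neutrophil list was at 5.31 to 5.57 against 5.14 to 5.21 in mouse. In rat it was at 5.80 to 6.14 against 5.44 to 5.60. The microglial, neuronal and astrocyte lists overlapped at 2 h in both species. In mouse the 2 h oligodendrocyte list was lower after pMCAO, at 9.44 to 9.53 against 9.54 to 9.59. The mouse cortical neuron list was also lower at 2 h, by a small margin, at 9.46 against 9.47 or more in sham. For each of these lists 0 of 4 markers passed the threshold in mouse at 2 h, and the rat groups overlapped. The part of cell makeup in the results below was not tested.

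Mouse promoters are shown for 4 genes on which the results turn, Srxn1, which rose in mouse, Gclm and Mt1, whose effects differed between the species, and Mt3, to set beside Mt1. Rat sequences were not used here. They are RefSeq sequences of GRCm38.p6, the 250 bases before the transcription start, 5′ to 3′ on the gene's strand. Capitals mark a metal response element (TGCACNC or TGCGCNC) in the metallothionein genes, and an antioxidant response element (TGACNNNGC) or an AP1 element (TGANTCA) in the others, on either strand. Srxn1 is at chr2:152105274-152105523, Gclm at chr3:122245307-122245556, Mt1 at chr8:94178839-94179088 and Mt3 at chr8:94152357-94152606.
Srxn1: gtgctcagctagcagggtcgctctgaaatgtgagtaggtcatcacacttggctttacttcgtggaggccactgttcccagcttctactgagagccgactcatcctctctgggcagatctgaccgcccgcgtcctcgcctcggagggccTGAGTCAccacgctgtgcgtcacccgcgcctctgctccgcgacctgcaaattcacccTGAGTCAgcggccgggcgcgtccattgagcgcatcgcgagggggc
Gclm: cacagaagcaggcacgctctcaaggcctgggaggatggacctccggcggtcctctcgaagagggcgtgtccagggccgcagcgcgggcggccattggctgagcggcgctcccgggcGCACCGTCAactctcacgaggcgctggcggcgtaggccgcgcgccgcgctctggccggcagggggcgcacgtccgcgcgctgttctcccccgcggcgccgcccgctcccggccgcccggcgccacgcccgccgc
Mt1: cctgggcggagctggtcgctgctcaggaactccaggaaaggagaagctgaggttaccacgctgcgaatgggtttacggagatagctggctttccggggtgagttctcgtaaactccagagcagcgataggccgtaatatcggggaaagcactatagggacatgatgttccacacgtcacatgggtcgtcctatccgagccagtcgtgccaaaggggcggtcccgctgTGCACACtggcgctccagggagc
Mt3: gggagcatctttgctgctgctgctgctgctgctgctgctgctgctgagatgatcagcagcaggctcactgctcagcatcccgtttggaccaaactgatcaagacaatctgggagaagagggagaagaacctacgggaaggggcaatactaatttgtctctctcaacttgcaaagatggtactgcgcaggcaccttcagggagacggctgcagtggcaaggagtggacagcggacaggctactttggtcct

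The search covered 250 bases before to 50 after the start in 32851 mouse promoters. Positions count from the annotated RefSeq start, and where transcription began in this tissue was not measured. The Srxn1 promoter held AP1 elements at -102 to -96 and at -45 to -39 from the start, and 0.46% of all promoters held 2 or more. AP1 was added to the search after this sequence had been seen. An antioxidant response element lay at 29 to 37 after the Srxn1 start and, in Gclm, at -134 to -126, and 12.4% of all promoters held at least 1. In Gclm the element overlaps a metal response element at -138 to -132. In Srxn1 the letters TGAGTCAGC from -45 have G where the antioxidant search asked for C, and were counted as AP1 only. Mt1 held 3 metal response elements, at -23 to -17 before and at 3 to 9 and 21 to 27 after the start, against 1.97% of all promoters with 3 or more, and Gclm also held 3. Mt3 held 1, at 28 to 34 after the start, and 25.7% of all promoters held at least 1. Mt2, whose promoter is not printed here, held 4 metal response elements, beside 0.517% of all promoters with 4 or more. Its 6 h difference, given below, passed the threshold in neither species. Of the 9 genes, 7 matched the table, Hmox1 and Gclc not among them. Among those not printed, Txnrd1 held an antioxidant response element at -92 to -84 from 1 of its listed starts. Nqo1 and Slc7a11 held 0 antioxidant response elements and 0 AP1 elements. Srxn1 also held a metal response element, at -19 to -13. These are matches of letters, not measured binding.

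**Figure D1:**
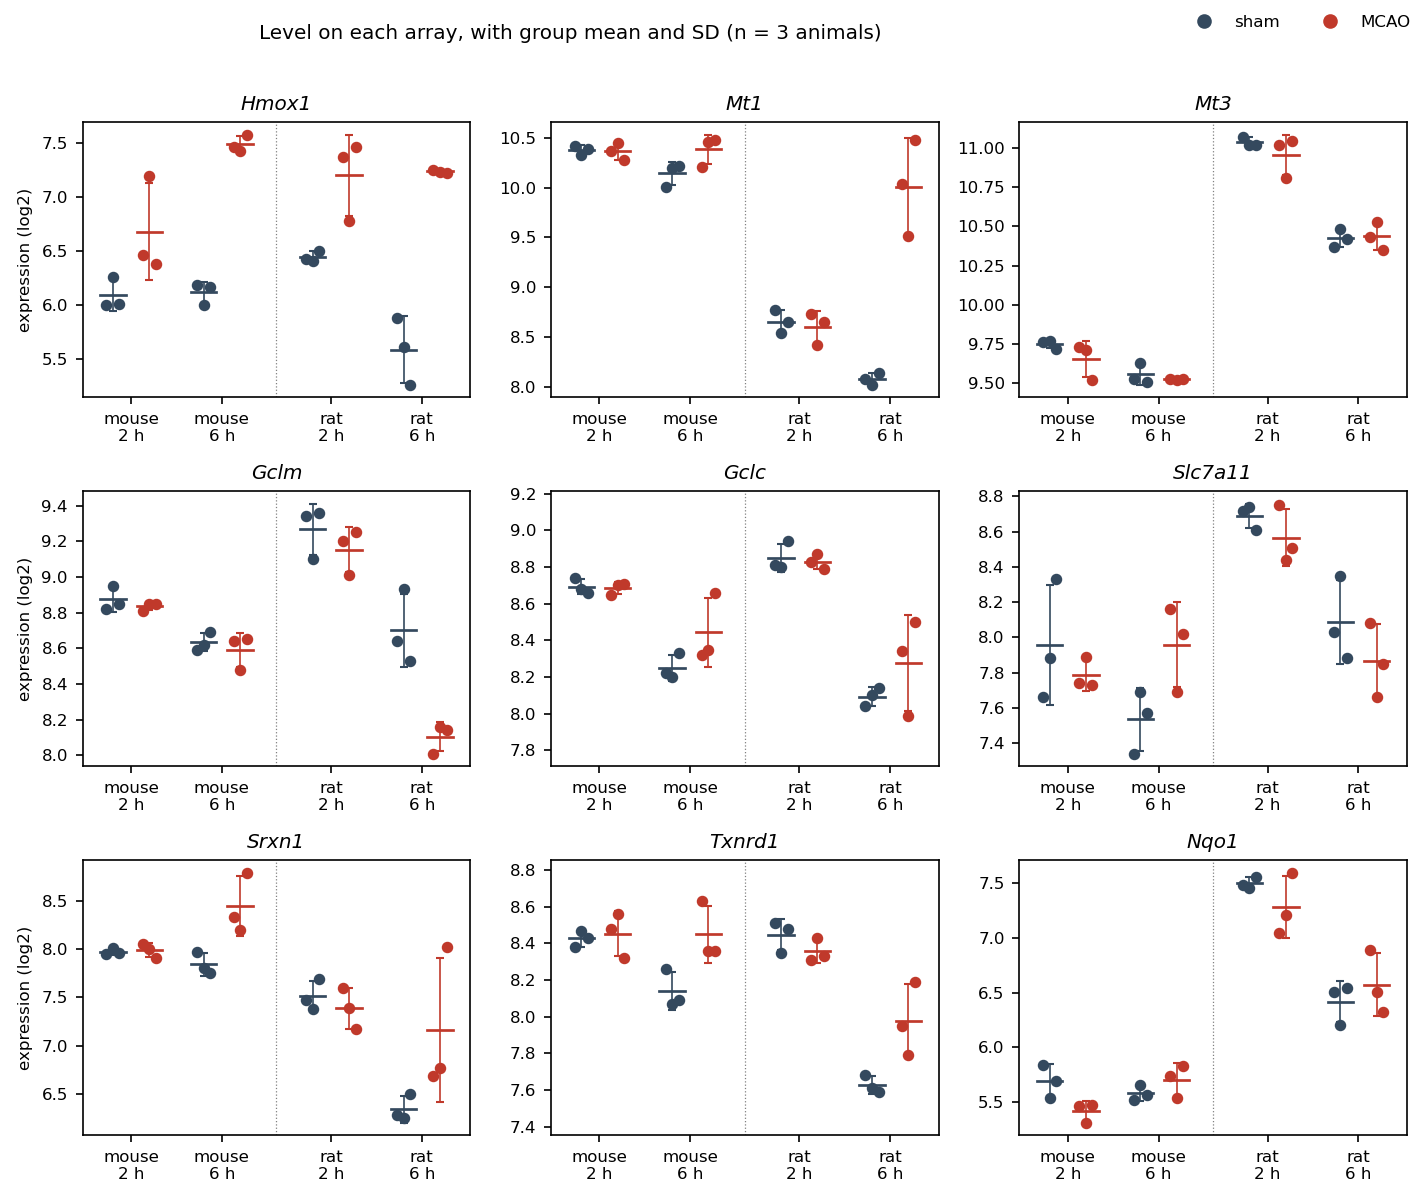
Each panel plots the deposited log2 level of 1 gene on every array (points), with group mean and SD (n = 3 animals), for sham and pMCAO (labelled MCAO) groups by species and time. In the Hmox1 panel every pMCAO array is above every sham array of its time, whereas in the Mt1 panel only the rat 6 h groups are far apart, at 9.51 to 10.48 against 8.02 to 8.14.

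Hmox1, the inducible haem oxygenase, was higher in every pMCAO array than in every sham array of the same time, in both species and at both times, and rose past the threshold at 6 h. At 6 h the groups were apart in this direction for 10.7% of all mouse genes and 9.73% of all rat genes. In mouse at 6 h the arrays read 7.46, 7.42 and 7.57 after pMCAO and 6.18, 6.00 and 6.16 in sham. In rat at 6 h they read 7.25, 7.23 and 7.22 after pMCAO against 5.88, 5.61 and 5.26 in sham. The pMCAO arrays were close together in each species, and the sham rats were spread over a wider range. The log2 rise was 1.37 ± 0.17 (limma SE, n = 3 against 3) in mouse, a 2.58-fold change with limma adjusted p 0.00184. In rat it was 1.65 ± 0.17, 3.14-fold with adjusted p 0.000328. Each SE of a pMCAO difference uses a spread pooled over the 12 arrays of the species, not that of the compared groups alone. Both calls held with each array left out in turn.

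At 2 h Hmox1 did not pass the threshold in either species. In mouse the arrays read 6.46, 7.19 and 6.38 after pMCAO against 6.00, 6.26 and 6.01 in sham, and in rat 7.37, 6.77 and 7.46 against 6.42, 6.40 and 6.50. The groups did not overlap, which was so, in this direction, for 6.24% of all mouse genes and 5.54% of all rat genes at 2 h. A single animal in each species stood away from the other pMCAO animals, the second replicate, high in mouse and low in rat. The difference was 0.59 ± 0.17 in mouse (adjusted p 0.356), and 0.33 without that mouse. In rat it was 0.76 ± 0.17 (adjusted p 0.214), and 0.97 without that rat, where it passed (adjusted p 0.0322).

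The other genes of haem and iron handling are described at 6 h. Over all genes, 7.43% passed the threshold at 6 h in mouse and 6.47% in rat, the shares to set beside this and later list counts. Blvrb, a biliverdin reductase, rose in mouse at 6 h by 0.51 ± 0.11 (adjusted p 0.019), and in rat its difference of 0.74 ± 0.22 did not pass (adjusted p 0.0651). Fech, ferrochelatase, which inserts the iron into protoporphyrin to make haem, fell by 0.25 in mouse (adjusted p 0.039). Ireb2, an iron-sensing RNA-binding protein, fell by 0.46 ± 0.11 in rat (adjusted p 0.0234). The constitutive haem oxygenase Hmox2 differed by 0.08 ± 0.05 in mouse and 0.22 ± 0.10 in rat, and ferritin heavy chain Fth1 by 0.04 and 0.09, none past the threshold. Of the haem and iron list 1 gene rose and 1 fell among 19 in mouse, and 0 rose and 1 fell among 18 in rat, with medians of -0.02 and 0.06 beside -0.02 over all genes in each species. Red blood cell markers, which would come with blood, overlapped between operations at 6 h, with 1 of 8 measured in mouse (5.46 to 5.61 against 5.49 to 5.69) and 3 of 8 in rat (7.30 to 7.74 against 7.34 to 7.57). The Blvrb call was lost without mouse sham replicate 1 (adjusted p 0.0558) or 3 (0.0743). That of Fech was lost without any 6 h mouse array but sham replicate 1 (adjusted p 0.069 to 0.132), and that of Ireb2 without rat pMCAO replicate 1 or 2 or sham replicate 1 or 2 (0.0584 to 0.0932).

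Mt1, the widely expressed metallothionein, had the largest rise of the 9 genes in rat at 6 h and did not pass the threshold in mouse. The rat arrays read 10.04, 9.51 and 10.48 after pMCAO and 8.08, 8.02 and 8.14 in sham. The sham rats lay within a narrow band, and the third pMCAO replicate was highest. Every pMCAO rat was above that band, as for 9.73% of all rat genes. The rise was 1.93 ± 0.18 (95% confidence interval 1.53 to 2.33), or 3.81-fold, with limma adjusted p 0.000188, and it held with each array left out (1.69 to 2.18). A second Mt1 cluster of the rat array, with lower values, gave 5.97, 5.89 and 6.81 after pMCAO against 3.96, 4.58 and 4.56 in sham, a difference of 1.86. Probes of metallothionein genes can pick up their close relatives, so which paralogue gave the signal is uncertain.

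In mouse at 6 h Mt1 read 10.21, 10.46 and 10.48 after pMCAO and 10.01, 10.20 and 10.22 in sham. The groups overlapped by a small margin, and the difference of 0.24 ± 0.09 (confidence interval 0.05 to 0.43) had adjusted p 0.116. Without pMCAO replicate 1 it was 0.33 and passed (adjusted p 0.0412). The mean Mt1 levels at 2 h were 10.37 ± 0.09 (SD) after pMCAO and 10.38 ± 0.05 in sham mice, and 8.60 ± 0.16 and 8.65 ± 0.12 in rats. The differences, -0.01 ± 0.09 and -0.05 ± 0.18 (SE), did not pass in either species.

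Mt3, the brain metallothionein, did not pass the threshold in any comparison. At 6 h it read 9.53, 9.52 and 9.53 after pMCAO against 9.53, 9.63 and 9.51 in mouse, and 10.43, 10.53 and 10.35 against 10.37, 10.48 and 10.42 in rat. The groups overlapped, and the 95% confidence intervals of the difference were -0.17 to 0.11 in mouse and -0.16 to 0.19 in rat. Within rat the Mt3 interval does not meet the interval of Mt1 (1.53 to 2.33), and within mouse it overlaps that of Mt1 (0.05 to 0.43). Its 2 h differences were -0.10 ± 0.07 in mouse and -0.08 ± 0.08 in rat.

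Mt2 (Mt2A in rat), which neighbours Mt1 on the chromosome, was followed as the nearest relative outside the 9 genes. At 6 h it was 0.29 ± 0.11 higher in mouse (adjusted p 0.155) and 0.37 ± 0.13 higher in rat (adjusted p 0.114), neither past the threshold. The rat arrays read 12.14, 12.10 and 12.52 after pMCAO against 11.65, 12.05 and 11.94. These groups did not overlap, as for 9.73% of all rat genes in this direction. A second rat cluster of Mt2A with lower values gave a difference of 0.94, so the clusters disagree in size. In mouse the gene for the metal-sensing factor, Mtf1, rose by 0.26 ± 0.07 (adjusted p 0.0465) and Slc39a10, a zinc importer, fell by 0.30 ± 0.06 (adjusted p 0.0149). In rat Mtf1 differed by -0.02 ± 0.08, and no gene of 8 on the metallothionein and zinc list passed, against 1 up and 1 down of 7 in mouse (list medians 0.17 in mouse and -0.03 in rat). Another rat metallothionein, Mt1f, which is not on that list and was named by its likeness to Mt1, rose by 1.26 at 6 h (limma adjusted p 0.00058) and differed by 0.04 at 2 h. The Slc39a10 call was lost without sham replicate 3 (adjusted p 0.0574), and that of Mtf1 without any array but sham replicate 1 (0.0738 to 0.139).

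Of Gclm, Gclc and Slc7a11, which supply glutathione, Gclm passed the threshold, and it fell, in rat at 6 h, while the other two passed in no comparison of pMCAO with sham. The modifier subunit read 8.01, 8.16 and 8.14 after pMCAO and 8.64, 8.93 and 8.53 in sham rats. Every pMCAO array was below every sham array, as for 14.8% of all rat genes at 6 h. The fall was -0.60 ± 0.11 (95% confidence interval -0.84 to -0.35), a 1.51-fold lower level with limma adjusted p 0.00968. It passed with each array left out in turn (adjusted p 0.0128 to 0.0376). In mouse at 6 h Gclm read 8.64, 8.48 and 8.65 against 8.59, 8.62 and 8.69, overlapping groups whose difference was -0.04 ± 0.06 (confidence interval -0.18 to 0.10). Gclm differed at 2 h by -0.04 ± 0.06 in mouse and -0.11 ± 0.11 in rat, neither past the threshold.

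Gclc, the catalytic subunit of the same enzyme, did not pass in either species. At 6 h it read 8.34, 7.99 and 8.50 after pMCAO against 8.04, 8.10 and 8.14 in rat, and 8.32, 8.35 and 8.66 against 8.22, 8.20 and 8.33 in mouse. In each species the groups overlapped, with the third pMCAO replicate highest. The differences were 0.18 ± 0.11 in rat (adjusted p 0.357) and 0.19 ± 0.08 in mouse (adjusted p 0.196). Without rat pMCAO replicate 2, the low array, the rat difference was 0.33 and passed (adjusted p 0.0369). Gclc differed at 2 h by -0.02 ± 0.11 in rat and -0.01 ± 0.08 in mouse.

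Slc7a11, which imports the cystine, had differences of opposite sign in the 2 species at 6 h and passed in neither. Mouse arrays read 8.16, 7.69 and 8.02 after pMCAO against 7.34, 7.69 and 7.57, and rat arrays 8.08, 7.66 and 7.85 against 8.03, 8.35 and 7.88. The mouse groups met at 7.69 and the rat groups overlapped. The differences were 0.42 ± 0.16 in mouse (adjusted p 0.143) and -0.22 ± 0.13 in rat (adjusted p 0.363). A second mouse cluster with lower values differed by 0.53, and the mean of both clusters by 0.48, which passed (adjusted p 0.0311). Its 2 h differences were -0.17 ± 0.16 in mouse and -0.12 ± 0.13 in rat.

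Slc3a2, the heavy chain with which Slc7a11 forms the exchanger, rose in mouse at 6 h by 0.41 ± 0.07 (adjusted p 0.00741) and did so with each array left out. In rat its difference was 0.14 ± 0.08 (adjusted p 0.35). Chac1, an enzyme that breaks glutathione down, rose in both species, by 0.70 ± 0.15 in mouse (adjusted p 0.018) and 0.82 ± 0.18 in rat (adjusted p 0.0187). The Chac1 call was lost without sham replicate 2 or 3 in mouse (adjusted p 0.056 and 0.0616) and without sham replicate 1 or 2 in rat (0.0512 and 0.0757). Glutathione synthetase Gss differed by -0.01 ± 0.08 in mouse and 0.02 ± 0.07 in rat, and glutathione reductase Gsr by -0.15 ± 0.06 and -0.20 ± 0.11, none past the threshold. In all, 2 of 21 listed glutathione genes rose in mouse and 1 of 20 in rat, with 0 falling and medians of 0.00 and 0.01.

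Srxn1, sulfiredoxin, rose in mouse at 6 h. The arrays read 8.33, 8.20 and 8.79 after pMCAO against 7.97, 7.80 and 7.75 in sham. The groups did not overlap, as for 10.7% of all mouse genes in this direction. The rise was 0.60 ± 0.12, or 1.52-fold, with limma adjusted p 0.0172. It missed the threshold without sham replicate 2 (adjusted p 0.0528) or sham replicate 3 (0.066). In rat at 6 h Srxn1 read 6.69, 6.77 and 8.02 against 6.28, 6.25 and 6.50. Here too every pMCAO array was above every sham array, as for 9.73% of all rat genes, but the third replicate stood far above the others. The difference of 0.82 ± 0.27 did not pass (adjusted p 0.0979) and was 0.39 without that array. At 2 h the differences were 0.01 ± 0.12 in mouse and -0.13 ± 0.27 in rat, with overlapping groups.

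Txnrd1, thioredoxin reductase, was higher in every pMCAO array than in every sham array at 6 h in both species, by similar amounts. Such separation held for 10.7% of all mouse genes and 9.73% of all rat genes. In rat the arrays read 7.95, 7.79 and 8.19 against 7.68, 7.61 and 7.59, and the rise of 0.35 ± 0.10, or 1.27-fold, was just past the threshold (limma adjusted p 0.0498). In mouse they read 8.63, 8.36 and 8.36 against 8.26, 8.07 and 8.09, and the difference of 0.31 ± 0.09, or 1.24-fold, was just outside it (adjusted p 0.0613). The rat call held in 1 of 6 fits with an array left out, the one without pMCAO replicate 2 (adjusted p 0.0157), and was lost without pMCAO replicate 1 or 3 or any sham replicate (0.0905 to 0.136). At 2 h the differences were 0.03 ± 0.09 in mouse and -0.09 ± 0.10 in rat.

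Nqo1, the quinone reductase, did not pass in any comparison. At 6 h it read 5.74, 5.53 and 5.83 against 5.52, 5.65 and 5.56 in mouse and 6.89, 6.51 and 6.32 against 6.51, 6.20 and 6.54 in rat. The groups overlapped, with differences of 0.12 ± 0.10 and 0.16 ± 0.16. At 2 h the values after pMCAO were on the low side, 5.46, 5.31 and 5.47 against 5.84, 5.53 and 5.69 in mouse, where every pMCAO array was below every sham array, as for 8.39% of all mouse genes. That difference was -0.27 ± 0.10 (adjusted p 0.485), and the rat one -0.22 ± 0.16 (adjusted p 0.824).

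Among other thioredoxin and peroxiredoxin genes, 2 of 10 rose and 1 fell in mouse at 6 h, and none of 12 passed in rat. The genes that rose in mouse were Txnip, an inhibitor of thioredoxin (0.65 ± 0.13, adjusted p 0.0163), and Sesn2, a stress-inducible sestrin (0.68 ± 0.15, adjusted p 0.0233). Another sestrin, Sesn3, fell by 0.25 (adjusted p 0.0421). The Txnip call was lost without pMCAO replicate 2 or 3 or sham replicate 3 (adjusted p 0.0527 to 0.063). The Sesn2 call was lost without those arrays or sham replicate 2 (0.0607 to 0.0766), and that of Sesn3 without any of the 6 (0.0511 to 0.136). In rat Txnip differed by -0.10 ± 0.19. Of the superoxide and peroxide list, 0 of 7 genes passed in either species, with medians of -0.04 and 0.06.

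The genes for NRF2 and its partners were measured on the same arrays. In rat at 6 h, 3 of 9 rose. They were Nfe2l2, NRF2 itself (0.57 ± 0.13, adjusted p 0.0214), Mafk, a small MAF partner (0.76 ± 0.11, adjusted p 0.00288), and the repressor Bach1 (0.49 ± 0.07, adjusted p 0.00337). In mouse 1 of 9 rose, Bach1, by 0.47 ± 0.10 (adjusted p 0.0167). The mouse differences of Nfe2l2, 0.25 ± 0.09, and Mafk, 0.26 ± 0.09, did not pass (adjusted p 0.123 and 0.11). So the transcripts of an activator and of a repressor of the same element were both higher in rat. Keap1 differed by -0.34 ± 0.12 in rat, where every pMCAO array was below every sham array (14.8% of all rat genes at 6 h), and by -0.09 ± 0.09 in mouse, neither past the threshold. The list medians were 0.05 in mouse and -0.02 in rat. The rat calls of Bach1 and Mafk held with each array left out, while that of Nfe2l2 was lost without any array but pMCAO replicate 2 (adjusted p 0.051 to 0.0664). The mouse Bach1 call was lost without pMCAO replicate 3 (0.0532).

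NADPH and detoxification genes are another branch of the NRF2 program. Ugdh, which makes the sugar donor for glucuronidation, rose in rat by 0.46 ± 0.08 (adjusted p 0.00604) and differed by 0.10 ± 0.07 in mouse (adjusted p 0.405). It was the only 1 of 12 genes past the threshold in rat, and 0 of 12 passed in mouse, with medians of -0.05 and 0.05. Over all 7 lists together, which leave out the 9 genes themselves, 7 of 85 genes rose and 3 fell in mouse at 6 h, and 5 of 86 rose and 1 fell in rat. Among all genes 3.21% rose and 4.23% fell in mouse at 6 h, and 2.85% rose and 3.62% fell in rat. At 2 h the limma test called 0 of the list genes in either species.

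**Figure D2:**
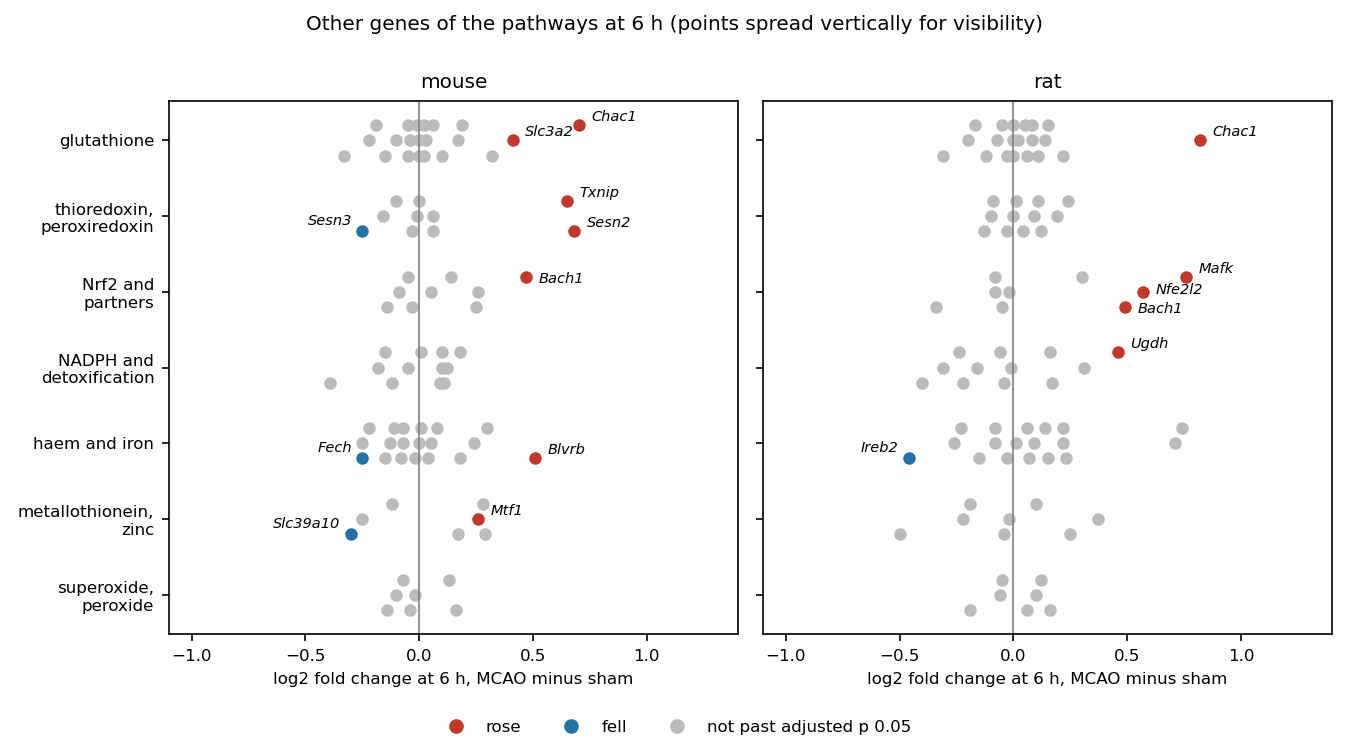
Each point is the log2 fold change at 6 h (pMCAO, labelled MCAO, minus sham) of 1 gene of the 7 lists, in mouse and rat, moved up or down within its list only for visibility. Genes past adjusted p 0.05 are coloured and named, and most points lie near 0, with 10 named in mouse and 6 in rat.

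Counted together, the 9 genes gave calls at 6 h and none at 2 h in the limma tests. At 2 h 0 of 9 passed in mouse, where 0.298% of all genes did, and 0 of 9 in rat, where 0.0661% did. At an unadjusted p under 0.05 the counts were 2 (Hmox1 and Nqo1) and 1 (Hmox1), beside 7.71% and 7.08% of all genes. At 6 h 2 of 9 rose in mouse and 0 fell, while 3.21% of all genes rose, 4.23% fell and 7.43% passed in all. In rat 3 rose and 1 fell, while 2.85% of all genes rose, 3.62% fell and 6.47% passed in all. At an unadjusted limma p under 0.05 the 6 h counts were 6 in mouse and 5 in rat, beside 23.3% and 22.1% of all genes. The median difference of the 9 was 0.24 in mouse and 0.18 in rat at 6 h, beside -0.02 over all genes in each species. Every pMCAO array was above every sham array for 3 genes in mouse and 4 in rat, beside 10.7% and 9.73% of all genes.

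**Figure D3:**
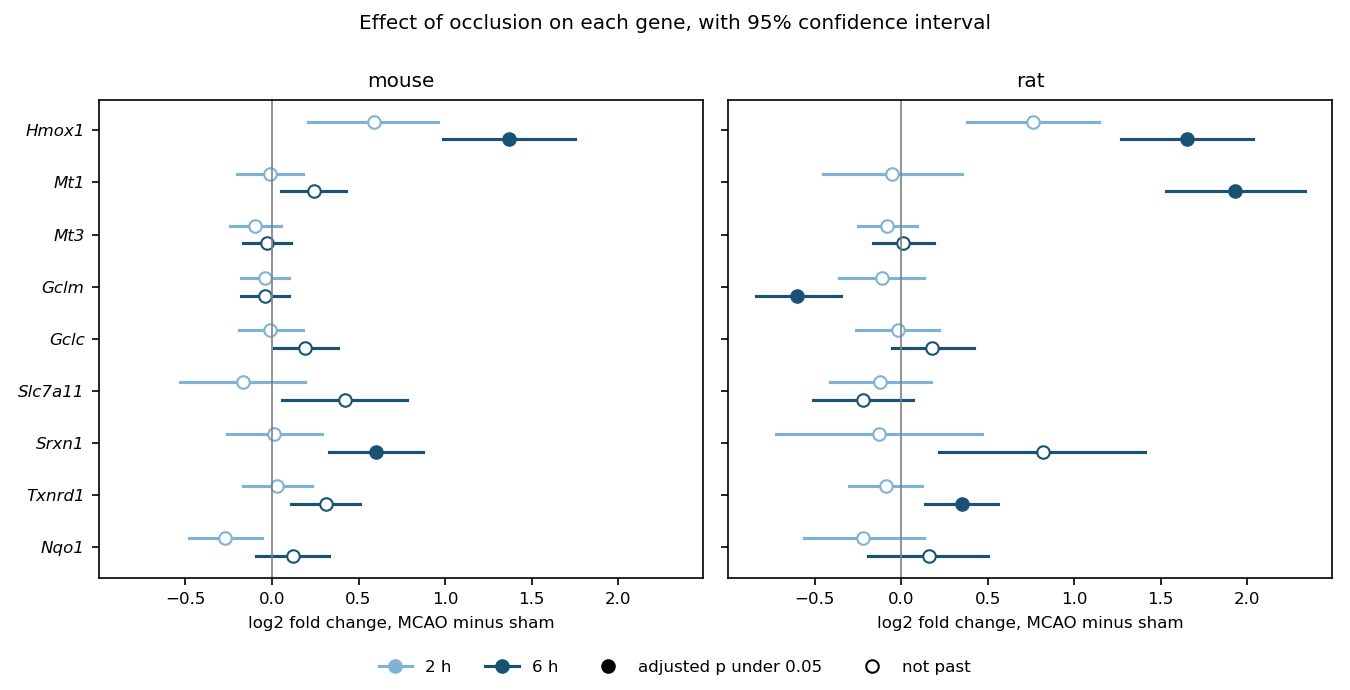
The log2 fold change (pMCAO, labelled MCAO, minus sham) of each gene at 2 h and 6 h is plotted with its 95% confidence interval, in mouse and rat, and filled points passed adjusted p 0.05. Filled points occur at 6 h only, at 1.37 and 0.60 in mouse and at 1.93, 1.65, 0.35 and -0.60 in rat.

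Whether an effect differed between the times was tested as the 6 h effect minus the 2 h effect. Rat Mt1 passed, with a change of 1.98 ± 0.26 (adjusted p 0.0133), 1 of 9 beside 0.231% of all rat genes. It passed in all 12 fits that left out an array, and missed the threshold when every transcript cluster, named or not, entered the fit and the adjustment (adjusted p 0.0653). In mouse 0 of 9 passed, beside 0.171% of all genes. At an unadjusted p under 0.05 the count was 5 of 9 in each species, beside 14% of all mouse genes and 10.8% of all rat genes. The Hmox1 change was 0.78 ± 0.24 in mouse (adjusted p 0.189) and 0.89 ± 0.24 in rat (adjusted p 0.197). Without the high mouse of the 2 h pMCAO group it was 1.04 and passed (adjusted p 0.0438). The change of Srxn1, 0.59 ± 0.18 in mouse and 0.94 ± 0.39 in rat, did not pass.

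The species were compared by the difference of their log2 fold changes, adjusted over 14204 symbols shared by the tables. Species, strain, artery side, filament method and array type differ together, and cannot be told apart. At 6 h Mt1 and Gclm differed, 2 of 9 genes beside 2.27% of all shared symbols, of which 1.19% were higher and 1.08% lower in rat. The Mt1 effect was 1.69 ± 0.20 larger in rat (3.23-fold, adjusted p 0.000419), and this held in all 12 fits with an array left out. The Gclm effect was lower in rat, by -0.55 ± 0.13 (adjusted p 0.0284). It missed the threshold without mouse pMCAO replicate 3, mouse sham replicate 1, rat pMCAO replicate 1 or 3, or rat sham replicate 1 or 2 (adjusted p 0.051 to 0.093).

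For the other 7 genes no species difference passed at 6 h. That of Hmox1 was 0.28 ± 0.24 (adjusted p 0.636), of Srxn1 0.22 ± 0.30 and of Txnrd1 0.04 ± 0.13. That of Slc7a11 was the largest of these, -0.65 ± 0.21 (adjusted p 0.113). The species difference of the relative Mt2, set against rat Mt2A, was 0.09 ± 0.17, beside 1.69 for Mt1. That value depends on the cluster, as it uses the rat Mt2A cluster with the higher values. The other Mt2A cluster, with a rat difference of 0.94 at 6 h, was not compared between species. At 2 h 0 of 9 passed, beside 0.0141% of shared symbols, and 0 of 9 had an unadjusted p under 0.05, beside 3.96%. At 6 h, 3 of 9 had an unadjusted p under 0.05, beside 16%.

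**Figure D4:**
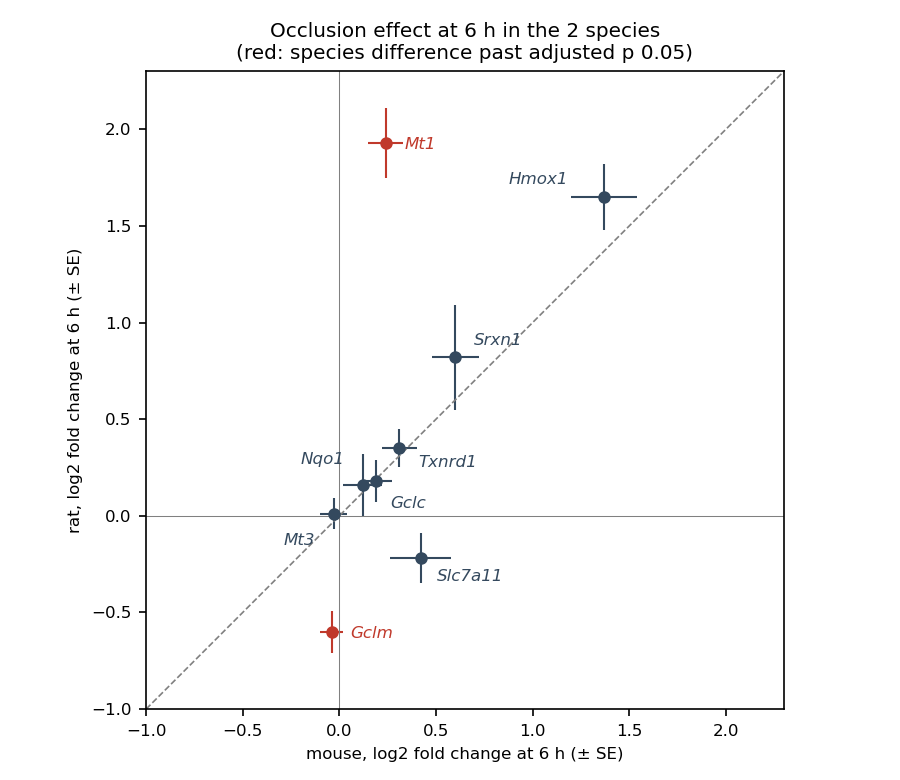
The rat log2 fold change at 6 h is plotted against the mouse one for each of the 9 genes, with standard errors, and the dashed line marks equal effects. Mt1 (0.24 in mouse, 1.93 in rat) and Gclm (-0.04 and -0.60), in red, are the genes whose species difference passed adjusted p 0.05.

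The genes most like Hmox1 and Mt1 were found by Pearson correlation over the 12 arrays of a species, after the sham mean of the same time was subtracted. The arrays share their operation groups, so r describes these arrays only. In mouse Hmox1 was followed most closely by Bag3, a co-chaperone (r = 0.99, log2 difference 0.95 at 6 h), Mcl1, a survival factor (0.97), Stc2 (0.96), Csrnp1 (0.96) and Uspl1 (0.95). In rat it was Nfkb2, an NF-kappaB subunit (0.96), Mir3597-3 (0.95), Atf3, a stress-induced transcription factor (0.95), Man1b1 (0.94) and Adamts9, a secreted protease (0.94). None of the names occurs in both lists.

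Mt1 had Mt2 as its nearest gene in mouse (r = 0.96), then Rpl22 (0.95), Olfr1454 (0.95), Sprtn (0.94) and Mapk1ip1l (0.94). In rat the nearest were Tmem178a, Mt1f, another metallothionein, and Stat3, the transcription factor of the interleukin 6 family (each 0.99), then Ier5 and Osmr, the oncostatin M receptor (each 0.98). In rat Osmr differed by 2.05 at 6 h and 0.22 at 2 h, and Stat3 by 0.86 and 0.06, beside 1.93 and -0.05 for Mt1. Among the 9 genes, rat Mt1 correlated at 0.92 with Txnrd1, 0.84 with Srxn1, 0.83 with Hmox1 and -0.84 with Gclm. The third rat pMCAO replicate at 6 h was the highest of its group for Mt1, Txnrd1, Srxn1 and Gclc, while Hmox1 was nearly level across that group. In mouse, Hmox1 correlated at 0.81 with Txnrd1, 0.80 with Srxn1, 0.69 with Mt1 and -0.21 with Gclm.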

How the data were processed

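The authors deposited log2 expression values, a table of 12 arrays for each species. They used oligo and limma, per the submitters' processing notes, which give no version. Their background correction, normalization and genome build were not given in the sources used here. RNA was extracted with an RNeasy kit, had integrity numbers above 7.5 and was labelled with WT PLUS reagents, per the labels' protocols. Groups and times came from sample titles, since the separate time field reads 2 h throughout. A gene is a symbol's transcript cluster with the highest mean, which left 22180 mouse and 18166 rat genes, and arrays of a table shared at most 3.12% of their values. Group means were fitted to the 12 arrays of a species with limma 3.58.1 under R 4.3.3 (8 residual degrees of freedom, eBayes, two-sided, Benjamini-Hochberg over all genes), and was tested on simulated data. Species effects were compared with Welch-Satterthwaite degrees of freedom. Exact permutation of 3 against 3 animals cannot go below 0.1. The 9 genes, the 7 pathway lists (95 genes) and 12 marker lists were chosen with earlier results of these data known. All 9 genes were named, with up to 3 genes past the threshold per pathway list and the 5 nearest genes of Hmox1 and Mt1. Alternatives were other eBayes settings, array weights, normalizations, a filter on dim genes, other cluster rules, a fold limit, a replicate block, fewer arrays, and leaving out each array.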

Additional observations from a re-analysis of the deposited data

Results flagged for a closer look

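Mt1 stood out by its effect differing between the species: at 6 h the log2 effect of pMCAO was 1.69 ± 0.20 larger in rat than in mouse (adjusted p 0.000419), with all 3 rats above all 3 sham rats and overlapping groups in mouse. Gclm stood out in the same comparison, with an effect at 6 h that was -0.55 ± 0.13 in rat relative to mouse (adjusted p 0.0284), and all 3 rats below all 3 sham rats. The Mt1 effect in rat also differed between the times, by 1.98 ± 0.26 from 2 h to 6 h (adjusted p 0.0133).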

How the results depend on the processing

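With 3 animals a group and no detection calls, small differences of dim genes are beyond these arrays. For the 9 genes, 1194 of 1224 single values under alternatives kept their side of the threshold, 10 newly passed and 20 no longer passed. None that had passed changed sign, while 66 values that had not passed crossed 0. Of their 72 single results, 62 kept their call throughout. For the other list and marker genes that passed, 146 of their 503 values under alternatives no longer passed, and 8 of 33 results kept their call throughout. The mouse 6 h count of 2 genes became 4 with trend and robust eBayes (Mt1 and Txnrd1 added), and 1 with a log2 fold limit of 1, with its 6 arrays alone or with a replicate block, each keeping Hmox1. It was 1 to 3 with an array left out. The rat 6 h count of 4 became 2 with the fold limit, 3 with array weights, with its 6 arrays alone or with all clusters in the adjustment, and 3 to 5 with an array left out. The rat 2 h count of 0 became 1 with array weights (Hmox1) and 0 to 1 with an array left out, and the rat change over time went from 1 to 0 with all clusters in the adjustment. The mouse change over time was 0 to 1, and the species count at 6 h 1 to 2, with an array left out. The causes of these shifts were not tested. With all clusters the fit itself was redone, so more than the number of tests changed. Most same-numbered animals did not deviate together (correlations of -0.12 to 0.07, and 0.33 for replicate 2 of the 2 h rats). Pairing by replicate number was thus not evident, though 3 animals a group could fail to show it. The replicate block left 3 of 4 calls in rat at 6 h.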
